A study of Mus musculus with 4 samples.

Results

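Aminoacyl-tRNA synthetases are the enzymes that join each amino acid to its own transfer RNA. Their genes were examined in the liver of female mice after knockdown of Cux2, a homeobox transcription factor with female-biased expression in mouse liver. The set was given as 38 genes: 20 encoding synthetases of the cytosol, 16 encoding synthetases of mitochondria and 2 encoding scaffold proteins of a synthetase complex (Aimp1 and Aimp2). Members were found by matching the RefSeq accession of each array probe to these genes, and 17800 of 41174 probes were not named in this way. Probes were matched for 36 of the 38 genes, and all 36 were tested among 25094 genes in all. Of these 25094 entries 14064 had a gene symbol. The others were counted under the array's own transcript identifier, so some may not be separate genes. No probe was matched to the cytosolic leucine enzyme Lars or the mitochondrial cysteine enzyme Cars2, which were not analysed here. The 36 genes had 53 probes, and 0 of these fell below background in any reading.

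Cytosolic synthetases are encoded in the nucleus and serve the ribosomes that translate most of the cell's messenger RNA. Mitochondria translate their own few messages with a separate set of synthetases, also encoded in the nucleus and mostly by different genes, whose symbols end in 2. Several cytosolic enzymes are held together with the scaffolds in the multi-synthetase complex. Many cytosolic synthetase genes are known targets of ATF4, the transcription factor that raises amino acid supply and charging when amino acids run short. Wars, the cytosolic tryptophan enzyme, is known in addition as a gene induced by interferon gamma.

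All mice were CD-1 females aged 8 weeks, an outbred stock, and all received a small interfering RNA (siRNA). Treated mice received Cux2 siRNA and were examined 5 or 8 days later, and control mice received a non-specific siRNA. Total liver RNA was pooled and hybridised against a control pool on Agilent 2-colour arrays, with 2 arrays per day. The treated pools came from 3 mice for day 5 replicate 1 and from 2 mice for each other array. For the 13 control mice the series description gives 2 pools, with 6 or 7 mice in each, whereas every sample description gives 6. The siRNA dose and route, the day on which control mice were killed and the control pool used on each array are not given in the sources used here. On both days Alexa 647 labelled the treated pool of replicate 1 and the control pool of replicate 2, with Alexa 555 in the other channel, so replicate number and dye orientation cannot be told apart. Because mice were pooled and control pools recurred, the p-values measure the spread between 4 arrays and not between animals.

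Values are log2 ratios of Cux2 siRNA over non-specific siRNA, so 1 unit is a doubling and values below 0 are lower after knockdown. Standard errors (SE) and adjusted p-values come from a single limma fit over the 4 arrays, with Benjamini-Hochberg adjustment over all genes, and a gene was counted as changed at an adjusted p under 0.05. Cux2 itself had log2 ratios of -1.91 and -1.70 at day 5, then -1.07 and -1.20 at day 8. In each channel 71.1% to 74.5% of probes stood well above background, and 0 spots were saturated. The 4 measured hepatocyte markers were well above background throughout. The 11 measured exocrine pancreas markers had array medians of -3.05 and -4.13 at day 5, but of 0.64 and -3.78 at day 8, so day 8 replicate 1 stood apart from the other arrays in these genes.

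Over both days 17 of the 36 genes changed, 12 upwards and 5 downwards, and 19 did not pass (47.2% called, against 31.1% of all genes tested). By direction, 14.8% of all genes rose and 16.3% fell. Most changes were small. The median over the 36 genes was 0.11, against 0.0032 over all genes, and only Kars and Wars differed by more than 1.5-fold (5.56% of the set, against 8.78% of all genes). At day 5 alone 5 genes passed, with rises in Iars, Eprs, Mars2 and Rars2 and a fall in Kars (16.8% of all genes called, 7.38% upwards and 9.42% downwards). At day 8 alone 3 passed, with rises in Iars and Eprs and a fall in Kars (14.3% of all genes called, 6.28% upwards and 8.06% downwards). No member, and 0 of all 25094 genes, differed between day 8 and day 5 after adjustment in limma. At an unadjusted p under 0.05 that difference took in 0 members and 621 genes in all. On the 4 arrays taken singly, 15 members lay above 0 on all of them, 9 lay below 0 on all of them and 12 had mixed signs. The background for these counts was 26.4% of genes above 0 and 26.0% below 0 on all 4 arrays. The share of members called over both days was near or below that of all genes under some other settings. It was 25.0% against 26.5% with the scanner's processed signals, and without single arrays it was 5.56% to 22.2% against 15.6% to 21.8%. Median centring of the arrays in place of loess left 0 of the 17 calls and 269 of all genes (1.07%), while the means of Iars (0.53) and Kars (-0.65) hardly moved.

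**Figure D1:**
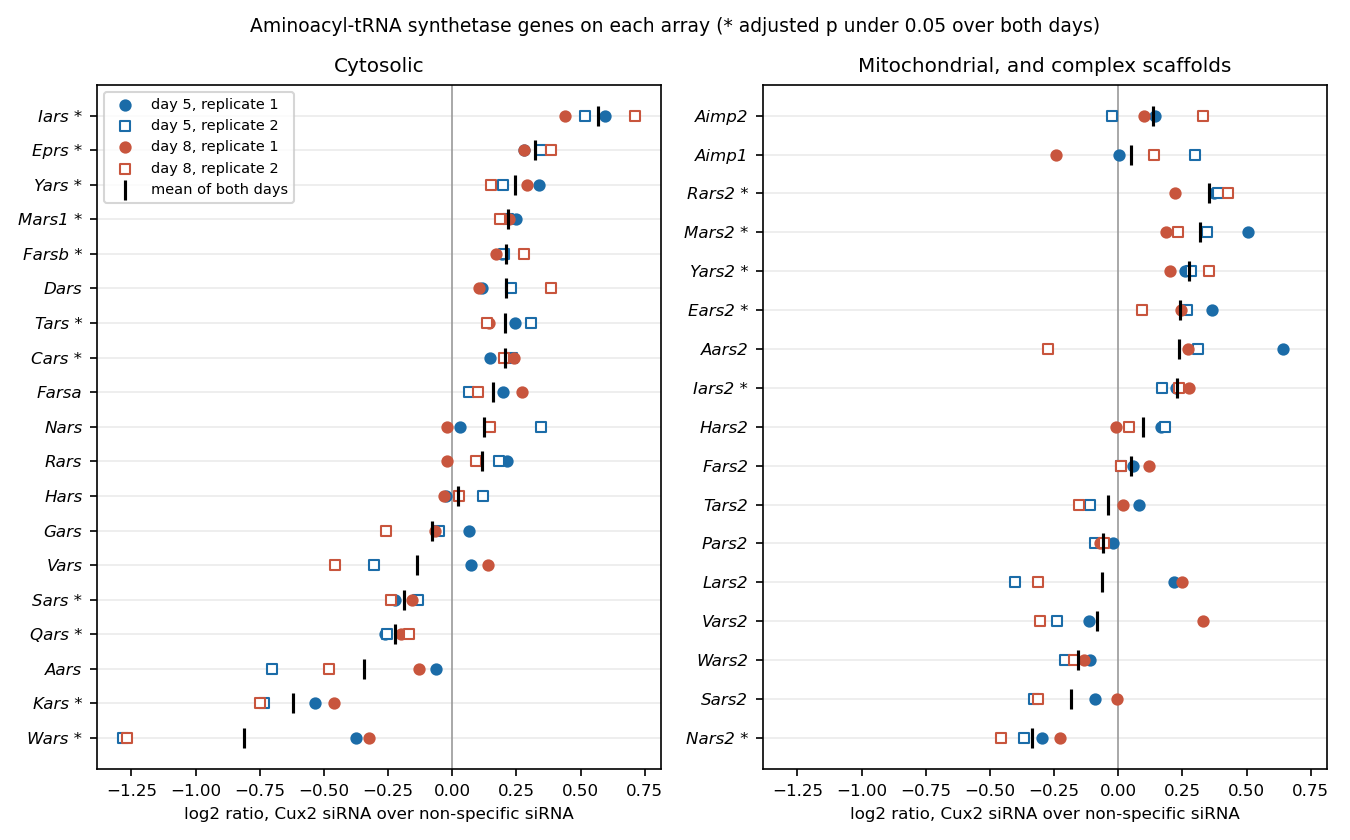
Log2 ratio of Cux2 siRNA over non-specific siRNA (horizontal axis) for each of the 36 measured genes on the 4 arrays. Circles are replicate 1, open squares are replicate 2, blue is day 5, red is day 8, black bars are means over both days, and asterisks mark the 17 genes with an adjusted p under 0.05. Iars stands highest and Kars and Wars lowest, and the squares of Wars, Aars, Lars2 and Vars lie well to the left of their circles.

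Among the 19 measured cytosolic synthetases 7 rose, 4 fell and 8 did not pass over both days. The median was 0.12 and the range -0.81 to 0.57. The medians on the single arrays were 0.12 and 0.18 at day 5 and 0.10 and 0.10 at day 8. The cytosolic medians were thus close to each other on all 4 arrays, day 8 replicate 1 included. Gars and Kars encode the mitochondrial as well as the cytosolic enzyme, and the median without them was 0.16.

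The largest rise was in Iars, the cytosolic isoleucine enzyme. Its log2 ratios were 0.60 and 0.52 at day 5 and 0.44 and 0.71 at day 8. The mean of 0.57 (SE 0.06, adjusted p = 0.00542) was a 1.48-fold rise, and a second probe for the gene averaged 0.55. Iars ranked highest of the 36 genes on 3 arrays and was exceeded on day 5 replicate 1 by Aars2 alone. It was also called when any single array was left out, with means from 0.50 to 0.63.

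Among the falls Kars, the lysine enzyme, had the smallest adjusted p. Its log2 ratios were -0.53 and -0.73 at day 5 and -0.46 and -0.75 at day 8. The mean of -0.62 (SE 0.07, adjusted p = 0.0057) left 65.1% of the control level. Kars had the lowest ratio of the 36 genes on both replicate 1 arrays and the next to lowest, after Wars, on both replicate 2 arrays. It kept its call when any single array was left out, with means from -0.69 to -0.55, and a single probe measured it.

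Other cytosolic rises were smaller. Eprs, a single protein that charges the tRNAs of both glutamate and proline, had ratios of 0.28 and 0.35 at day 5, then 0.28 and 0.38 at day 8. Its mean was 0.32 (SE 0.05, adjusted p = 0.0112), and its 4 probes averaged between 0.22 and 0.32. Leaving out either replicate 2 array ended the call (adjusted p = 0.0643 for day 5 and 0.0584 for day 8). The remaining rises were in Yars for tyrosine (0.24), Mars1 for methionine (0.22), Farsb, the beta subunit of the phenylalanine enzyme (0.21), Tars for threonine (0.21) and Cars for cysteine (0.20). All of these lay above 0 on the 4 arrays, and each call was lost when any single array was left out.

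The smaller cytosolic falls were in Qars, the glutamine enzyme, and Sars, the serine enzyme. Qars had ratios of -0.26 and -0.26 at day 5, then -0.20 and -0.17 at day 8, with a mean of -0.22 (SE 0.05, adjusted p = 0.0241). Sars had ratios of -0.22 and -0.14 at day 5, then -0.16 and -0.24 at day 8, with a mean of -0.19 (SE 0.05, adjusted p = 0.0457). Both were below 0 on all 4 arrays, and both calls were lost when any single array was left out.

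The 8 cytosolic genes that did not pass were Dars for aspartate (0.21), Farsa, the alpha subunit of the phenylalanine enzyme (0.16), Nars for asparagine (0.12), Rars for arginine (0.12), Hars for histidine (0.02), Gars for glycine (-0.08), Vars for valine (-0.14) and Aars for alanine (-0.34). Aars had ratios of -0.06 and -0.70 at day 5, then -0.13 and -0.48 at day 8 (SE 0.13, adjusted p = 0.106). All 4 were below 0, but the replicate 2 arrays were much lower than the replicate 1 arrays. Without day 5 replicate 1 the mean of Aars was -0.50 and passed (adjusted p = 0.0395).

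Promoter sequences were set beside these values because ATF4 acts through a short DNA element near the start of its targets. Windows of 300 bases, from 250 before to 50 after the annotated start, came from RefSeq on build GRCm38.p6 and were found for 29 of the 38 genes, Wars not among them. The motif TGATGNAA, known as the amino acid response element, was searched on both strands and occurred in 5 of these genes and in 3.97% of 32851 windows of the same length. The following stretches of 30 bases show the match in 4 of the 5 genes, with 2 ATF4 targets for comparison. They are written 5′ to 3′ on the gene's own strand with the match in capitals, which reads TGATGNAA or its reverse complement.
Iars, chr13:49682126-49682155, + strand: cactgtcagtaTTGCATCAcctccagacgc
Tars, chr15:11399655-11399684, - strand: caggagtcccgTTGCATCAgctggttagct
Yars, chr4:129189895-129189924, + strand: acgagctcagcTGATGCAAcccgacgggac
Gars, chr6:55037960-55037989, + strand: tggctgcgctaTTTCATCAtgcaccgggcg
Chac1, chr2:119351038-119351067, + strand: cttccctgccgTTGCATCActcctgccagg
Trib3, chr2:152344028-152344057, - strand: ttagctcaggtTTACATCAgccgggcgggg

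Relative to the annotated start, the first base of the match lay at 7 in Iars, -15 in Tars, 3 in Yars and -30 in Gars. Of the 5 synthetase genes with a match, Iars (0.57), Yars (0.24) and Tars (0.21) rose, and Gars (-0.08) and Aars (-0.34) did not pass. In the list of ATF4 targets 4 of 11 genes with a window held the motif, among them Chac1 (-1.99) and Trib3 (-2.42), which fell. Genes that hold these letters near their start were therefore found among those that rose and among those that fell.

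Genes of the multi-synthetase complex changed in both directions. Of its 10 listed components 9 were measured. Eprs, Iars and Mars1 rose, Kars and Qars fell, and Dars, Rars and the scaffolds did not pass. Aimp1, which is also the precursor of a secreted cytokine, had a mean of 0.05 (SE 0.09), with ratios of 0.0012 and 0.30 at day 5, then -0.24 and 0.14 at day 8. Aimp2 had a mean of 0.14 (SE 0.07), with ratios of 0.14 and -0.03 at day 5, then 0.10 and 0.33 at day 8. Neither scaffold kept its sign on all 4 arrays. By the fold of the catalytic domain, 4 of 8 measured class I cytosolic enzymes rose (Cars, Iars, Mars1, Yars) and 2 fell (Qars, Wars), a share of 75.0% called. Of 10 class II enzymes 2 rose (Farsb, Tars) and 2 fell (Kars, Sars), a share of 40.0%, against 31.1% of all genes. Eprs joins an enzyme of each class and was put in neither, and the difference between the classes was not tested.

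Among the 15 measured mitochondrial synthetases 5 rose, 1 fell and 9 did not pass over both days. The median was 0.05 and the range -0.34 to 0.35, narrower than that of the cytosolic genes. The share called was 40.0%, against 57.9% of the cytosolic genes and 31.1% of all genes. The difference between the classes was not tested, as the members had been chosen with earlier results known. Their array medians were 0.17 and 0.01 at day 5 and 0.19 and -0.06 at day 8, higher on both replicate 1 arrays than on the replicate 2 arrays. Replicate number was also dye orientation, and its part in this split was not tested.

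Rars2, the mitochondrial arginine enzyme, had the largest mitochondrial rise. Its ratios were 0.37 and 0.39 at day 5 and 0.22 and 0.43 at day 8, with a mean of 0.35 (SE 0.06, adjusted p = 0.0124), a 1.28-fold rise. Mars2, for methionine, had ratios of 0.50 and 0.34 at day 5, then 0.19 and 0.23 at day 8, with a mean of 0.32 (SE 0.05, adjusted p = 0.0137). The day 8 values of Mars2 were below both day 5 values, but the difference between days did not pass. The size of its mean depended on the background correction, at 0.13 with no subtraction and 0.57 with the scanner's processed signals. Yars2, for tyrosine, averaged 0.28 (SE 0.05, adjusted p = 0.019), with single arrays between 0.20 and 0.35. Ears2, for glutamate, averaged 0.24 (SE 0.05, adjusted p = 0.0299), with single arrays between 0.09 and 0.36. Iars2, for isoleucine, averaged 0.23 (SE 0.05, adjusted p = 0.0242), with single arrays between 0.17 and 0.28. These 5 genes were above 0 on all 4 arrays. The calls of Ears2 and Iars2 were lost when any single array was left out, those of Rars2 and Yars2 when any array other than day 8 replicate 1 was, and that of Mars2 without day 5 replicate 1 or day 8 replicate 2.

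The mitochondrial fall was in Nars2, the asparagine enzyme, and rested on its brighter probe. That probe gave -0.30 and -0.37 at day 5 and -0.23 and -0.46 at day 8, with a mean of -0.34 (SE 0.06, adjusted p = 0.0162). The dimmer probe gave 0.33 and 0.02 at day 5 and 0.11 and 0.03 at day 8, above 0 on every array. The mean of both probes was -0.11 and did not pass (adjusted p = 0.243). The Nars2 call was also lost when any array other than day 8 replicate 1 was left out.

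Of the 9 mitochondrial genes that did not pass, Aars2 for alanine (0.24), Hars2 for histidine (0.10) and Fars2 for phenylalanine (0.05) had means above 0. Tars2 for threonine (-0.04), Pars2 for proline (-0.06), Lars2 for leucine (-0.06), Vars2 for valine (-0.08), Wars2 for tryptophan (-0.16) and Sars2 for serine (-0.19) had means below 0. Of these 9 genes Aars2 had the widest range over the 4 arrays, with 0.64 and 0.31 at day 5 and 0.27 and -0.27 at day 8 (SE 0.11, adjusted p = 0.183). Its day 5 replicate 1 value was the highest of the 36 genes on that array. Lars2, with the largest SE of the 9 genes (0.14), had 0.22 and -0.40 at day 5 and 0.25 and -0.31 at day 8. It was above 0 on replicate 1 and below 0 on replicate 2 of both days. Vars2 had -0.12 and -0.24 at day 5 and 0.33 and -0.31 at day 8, and only day 8 replicate 1 was above 0.

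Where a cytosolic and a mitochondrial enzyme serve the same amino acid, 15 pairings could be set side by side, with Eprs and Fars2 each used in 2 of them. The means had the same sign in 11 pairings and opposite signs in 4. The same counts over pairs drawn from all genes were not made, so these are a description only. Both genes passed in 4 pairings, and in all 4 both rose: Eprs with Ears2, Iars with Iars2, Mars1 with Mars2 and Yars with Yars2. In each of these the genes were both above 0 on all 4 arrays. The pairings of opposite sign were Aars with Aars2, Eprs with Pars2, Nars with Nars2 and Tars with Tars2, and in none of these did both genes pass.

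**Figure D2:**
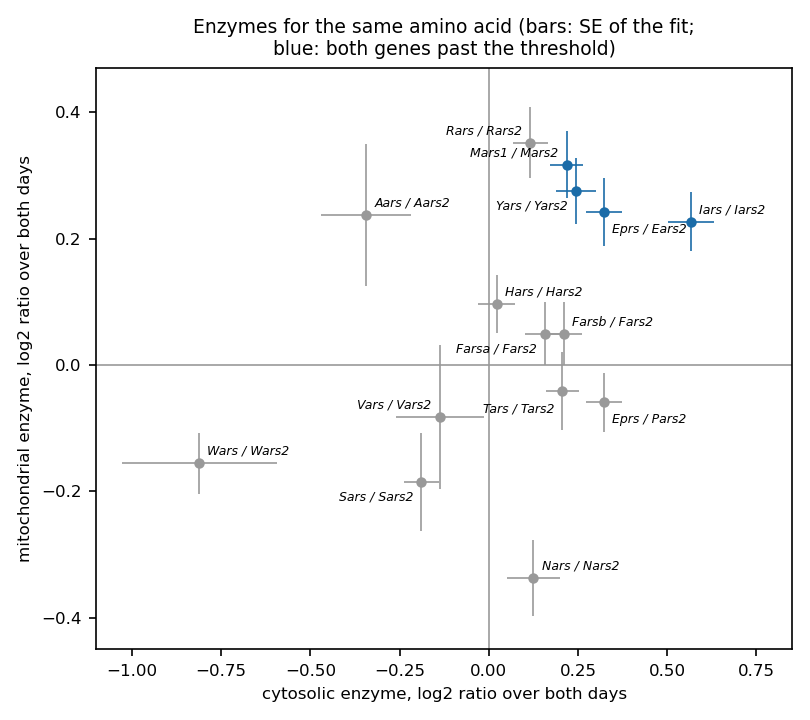
Mean log2 ratio over both days of each cytosolic synthetase (horizontal axis) against the mitochondrial synthetase for the same amino acid (vertical axis), with bars giving the SE of the fit. The 4 blue pairings, in which both genes passed, all lie in the upper right quadrant, and Wars with Wars2 lies farthest to the left.

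Wars had the lowest mean of the 36 genes, and its arrays fell into a higher and a lower pair. The brighter of its probes gave -0.37 and -1.28 at day 5 and -0.32 and -1.27 at day 8. All 4 values were below 0, and within each replicate number the days differed little, while the replicate 2 arrays were lower by 0.91 at day 5 and by 0.94 at day 8. This mean gap of 0.93 was the largest among the members, whose median was 0.13, and the median over all genes was 0.14. The mean of -0.81 (SE 0.22, adjusted p = 0.0478) left 57.0% of the control level. Neither day passed alone (adjusted p = 0.14 at day 5 and 0.162 at day 8).

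The scanned signals of that probe, less local background and before any dye normalization, show how the channels differed. With the treated pool in Alexa 647, the treated signal was 1541 and the control signal 1437 at day 5, and 1648 and 1457 at day 8. With the dyes exchanged, the treated signal was 1127 and the control signal 4788 at day 5, and 1231 and 4823.5 at day 8. The control reading was thus much brighter in Alexa 647 than in Alexa 555, and the treated reading less so. Which control pool was on each array is not given, so dye and control pool cannot be told apart here. The probe of Iars, whose ratio did not split by replicate, had control signals of 3498 and 3476.5 in Alexa 555 and of 5895.5 and 5750.5 in Alexa 647.

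The dimmer probe of Wars gave -0.02 and -0.49 at day 5 and 0.08 and -0.48 at day 8, with a mean of -0.23. It split by replicate number in the same direction, and its day 8 replicate 1 value lay just above 0. With the mean of both probes Wars was at -0.52 and did not pass (adjusted p = 0.0812). Leaving out either replicate 2 array ended the call, with means of -0.58 (adjusted p = 0.141 without the day 5 array and 0.135 without the day 8 array). The call was also lost with no background subtraction (0.134), with the scanner's processed signals (0.0847), with the authors' log10 values (0.0853) and with no filter on dim probes (0.0568).

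Wars lay below the median of the other cytosolic synthetases on every array, which was 0.13 and 0.19 at day 5 and 0.12 and 0.12 at day 8. Wars2, the mitochondrial enzyme for the same amino acid, was at -0.11 and -0.21 at day 5 and at -0.13 and -0.17 at day 8. Its mean of -0.16 (SE 0.05) did not pass (adjusted p = 0.0711), and its 3 probes averaged from -0.23 to 0.08. Kars stood nearest to Wars in the order of means, and the 2 means lay closer together than the SE of Wars.

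The interferon gamma response genes, taken by their median, were lower than Wars on every array. Of 16 measured genes 13 fell, 0 rose and 3 did not pass, with a median of -2.49. The share called was 81.2%, against 31.1% of all genes. Their largest falls were in the GTPase genes Gbp3 (-4.31, SE 0.06) and Igtp (-4.07, SE 0.36) and the chemokine gene Cxcl9 (-3.84, SE 0.08). Array medians of the list were -1.94 and -2.90 at day 5 and -2.07 and -2.99 at day 8, lower on both replicate 2 arrays, as in Wars. Medians of the 4 hepatocyte markers were also lower on replicate 2 (0.17 and -0.20 at day 5, 0.35 and -0.27 at day 8). Those of the 4 neutrophil markers were higher there (-1.62 and -1.17, then -1.93 and -1.38). Not every gene of the interferon list followed its median. Gbp3 had -4.17 and -4.16 at day 5 and -4.60 and -4.33 at day 8. The median gap between replicates in this list was 0.74, against 0.14 over all genes. These values and those of Wars come from the same arrays and control pools.

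Many markers of macrophages, neutrophils, lymphocytes and natural killer cells were lower in the same pools. Of all genes tested, 16.3% fell and 14.8% rose over both days. Of 7 measured macrophage markers 4 fell and 0 rose, and their summed processed signal was 53898 to 85729 in treated pools and 93552 to 112695 in control pools. The 4 measured neutrophil markers all fell (1983 to 4318 against 15688 to 21950), and 4 of 8 lymphocyte and natural killer cell markers fell (1614 to 1900 against 2805 to 4057). Of 3 measured red cell markers 1 rose and 0 fell, and of 4 bile duct markers 1 rose and 0 fell. Of 6 stellate cell and fibroblast markers 2 rose and 4 fell, and of 5 endothelial markers 1 rose and 3 fell. Of 4 hepatocyte markers 0 rose and 1 fell, and of 11 exocrine pancreas markers 0 rose and 4 fell. Measured markers had all passed the filter of at least 2 of 8 channel readings well above background. None of them was below background throughout in treated or in control pools. The neutrophil marker Elane had a probe that failed this filter and was not measured. In a bulk sample, fewer cells of a type and less RNA per cell cannot be told apart. The part of these cells in the values of Wars and the other members was not tested.

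**Figure D3:**
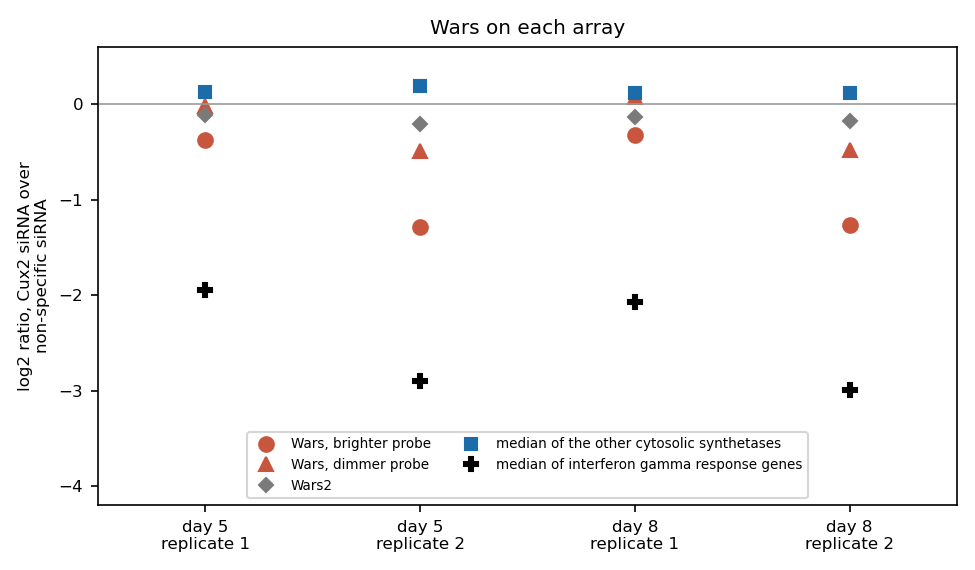
Log2 ratio of Cux2 siRNA over non-specific siRNA (vertical axis) on each of the 4 arrays for both probes of Wars, for Wars2, for the median of the other cytosolic synthetases and for the median of the interferon gamma response genes. The brighter Wars probe is near -0.37 and -0.32 on replicate 1 and near -1.28 and -1.27 on replicate 2, and the interferon median is lower on the same arrays.

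Motifs of interferon signalling were also searched on both strands. The interferon-stimulated response element occurred in Qars alone among the 29 genes, in 6 of 13 interferon gamma response genes and in 3.44% of all windows. TTCNNNGAA, the gamma-activated site, occurred in 3 of the 29 genes (Aars, Kars and Nars2), in 4 of 13 interferon gamma response genes and in 8.3% of all windows. Both motifs were thus about as common in the synthetase genes as in all windows. Whether a match bears on the fall of Kars was not tested. Matches of different motifs overlapped 0 times in the synthetase windows. The stretch in Kars, whose mean ratio was the lowest among the 29 genes of the set with a window, spans chr8:112011344-112011373 on the - strand. It is shown in the same notation.
Kars: cccgccctctTTCCCGGAAgaggcaggact

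A few further genes split by replicate number. The mean gaps were 0.59 for Lars2, 0.50 for Aars, 0.49 for Vars, 0.44 for Aars2 and 0.38 for Vars2. Vars had 0.07 and -0.31 at day 5 and 0.14 and -0.46 at day 8, above 0 on replicate 1 and below 0 on replicate 2. In these 5 genes the replicate 2 array of each day was the lower. Aimp1, next in order with a mean gap of 0.34, had the higher value on the replicate 2 array of each day.

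More than 1 probe measured 13 of the 36 genes. The probe means had the same sign in 11 of these, and opposite signs in Nars2 and Wars2. The spread between probes was 0.58 in Wars, 0.46 in Nars2 and 0.31 in Wars2. In Iars, Dars, Qars and Tars2, the probes lay within 0.02 of each other.

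**Figure D4:**
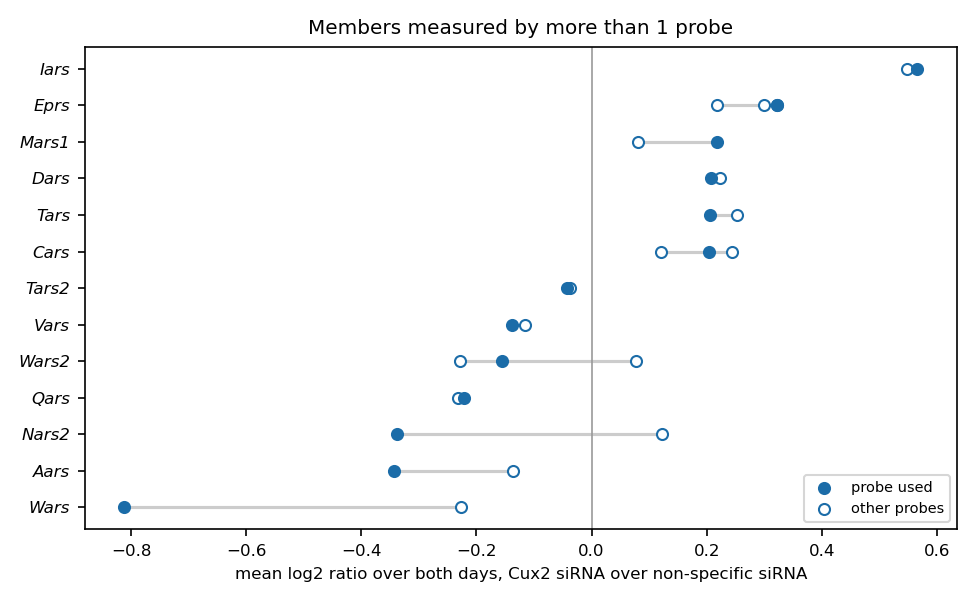
Mean log2 ratio over both days (horizontal axis) of each probe for the 13 genes measured by more than 1 probe. Filled circles are the brightest probe, which stood for the gene, and open circles are the other probes. Iars has both probes near 0.55, while those of Wars are at -0.81 and -0.23 and those of Nars2 lie on opposite sides of 0.

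Genes of other steps of tRNA charging and of translation were measured beside the synthetases, and 31.1% of all genes were called in the same comparison. Of 10 measured partners of charging, 2 rose, 0 fell and 8 did not pass (20.0% called). Another listed partner, Qrsl1, had no matched probe and was not measured. The risers, Gatb (0.32, SE 0.05, adjusted p = 0.0116) and Gatc (0.21, SE 0.05, adjusted p = 0.0319), encode subunits of the amidotransferase that makes mitochondrial glutamine tRNA from its glutamate form. Ears2, which loads glutamate onto the tRNA that this amidotransferase acts on, rose as well (0.24). Whether these rises are linked was not tested. Of 5 cytosolic elongation factor genes 0 passed, with a median of 0.11. Of 4 mitochondrial elongation factor genes 1 passed, Tufm, which brings charged tRNA to the mitochondrial ribosome (-0.23, SE 0.06, adjusted p = 0.0381).

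Of 12 measured ATF4 targets outside the synthetases 8 fell, 1 rose and 3 did not pass, with a median of -0.51. The share called was 75.0%, against 31.1% of all genes. Atf4 itself was the riser (0.27, SE 0.05, adjusted p = 0.0197). The largest falls were in Trib3, a pseudokinase gene induced by stress (-2.42, SE 0.06), Psat1, an enzyme of serine synthesis (-2.04, SE 0.17), and Chac1, a glutathione-degrading enzyme (-1.99, SE 0.24). Trib3 had ratios of -2.32 and -2.46 at day 5, then -2.34 and -2.55 at day 8, so the arrays lay close together. Array medians of the list were -0.46 and -0.62 at day 5 and -0.49 and -0.49 at day 8, all below 0, whereas the cytosolic synthetase medians were all above 0.

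**Figure D5:**
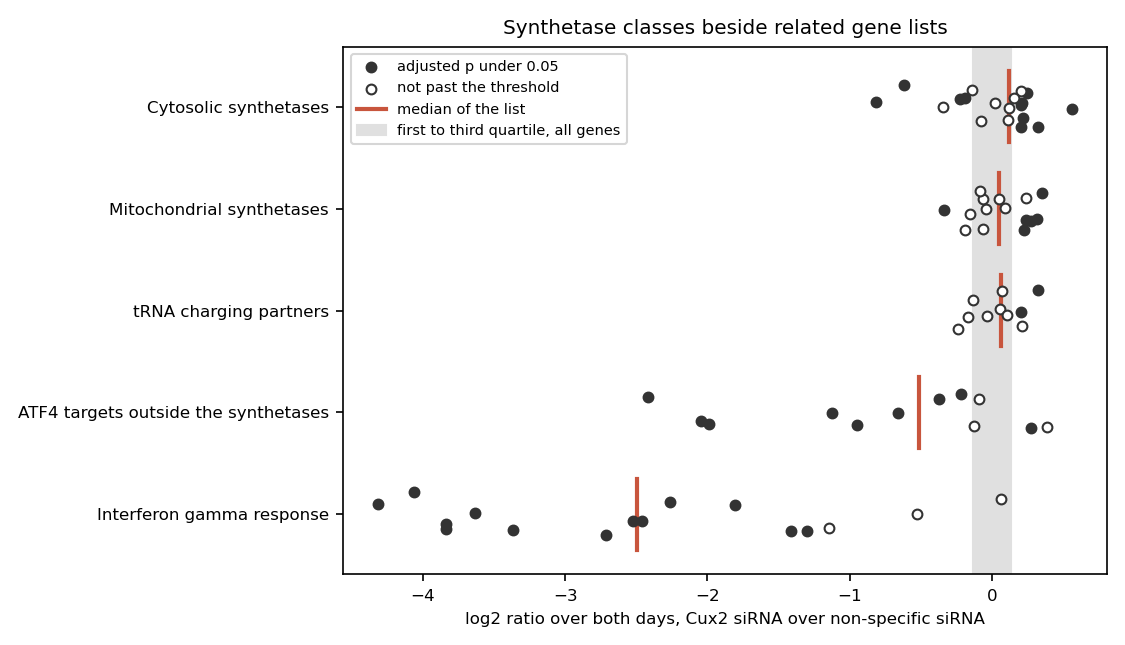
Mean log2 ratio over both days (horizontal axis) of every measured gene in 5 lists, with filled circles for an adjusted p under 0.05, open circles for genes that did not pass and a red bar for the median of each list. The grey band runs from the first to the third quartile of all genes tested. The synthetase medians of 0.12 and 0.05 lie inside the band, and the medians of the ATF4 targets (-0.51) and the interferon gamma response genes (-2.49) lie to its left.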

How the data were processed

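The members, gene lists and motifs were chosen with earlier results of these data known. Every measured member is named, and of the charging, elongation factor, ATF4 and interferon lists the genes called or, with over 5 called, the 3 largest changes. Cell type markers are given as counts and summed signals. Per the file headers, Agilent Feature Extraction 10.7.1.1 produced the scanner tables. Their deposited intensity columns hold median spot and background brightness per channel, and the processed signals deposited beside them were background-subtracted and dye-normalized by that software. The design had named mean signals first, and medians were used because the scanner tables hold those. The authors' value table holds log10 ratios, an alternative here. Ratios were turned to treated over control by the dyes in the labels. In limma 3.58.1 (R 4.3.3), normexp (offset 50) and loess within arrays were applied, with 1639 control spots at weight 0 and outlier-marked spots left out. Spots were averaged per probe, and probes were named through RefSeq accessions (23374 of 41174). Probes well above background in at least 2 of 8 channel readings were kept (31762), and the brightest stood for a gene. lmFit and eBayes gave 2 residual and 2.78 prior degrees of freedom, and the small number of arrays limits the precision. Alternatives covered background, normalization, filter, probe choice, the replicate number as a block and leaving out each array. The array design's build differs from that of the promoter table, so no probe coordinates are given. Some matched promoter stretches are not reported here.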

Additional observations from a re-analysis of the deposited data

How the results depend on the processing

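No called value changed sign under any of the 12 alternatives, and 91 of 1728 values of single genes changed sign, all of them uncalled. Of the 36 genes, 17 passed over both days in the analysis as reported. With median centring 0 passed at day 5, at day 8 and over both days, where 5, 3 and 269 of all 25094 genes did. With the scanner's processed signals 1 passed at day 5, 0 at day 8 and 9 over both days (8 rose, 1 fell), and the authors' log10 values gave the same counts of 1, 0 and 9. Over both days that is 25.0% of members, against 26.5% of all genes. With the scanner's processed signals the shares were 2.78% against 8.03% at day 5 and 0% against 5.87% at day 8. Both moved the cytosolic median from 0.12 to 0.17 and the median of all genes from 0.0032 to 0.047. With no background subtraction 9 passed at day 5 (25.0% against 11.5% of all genes). With the replicate number as a block, which is also the dye orientation, 15 passed at day 5 (10 rose, 5 fell), 11 at day 8 (7 rose, 4 fell) and 23 over both days (15 rose, 8 fell, 63.9% against 44.9% of all genes). The shares with the block were 41.7% against 32.8% at day 5 and 30.6% against 29.7% at day 8. The 17 were among the 23 called over both days with the block (Wars at an adjusted p of 0.00041). The others were Aars (0.00718), Aars2 (0.0161), Dars (0.0203), Sars2 (0.0222), Farsa (0.0347) and Wars2 (0.0364). Deviations from the day means correlated between same-numbered arrays at r = 0.5 over 25090 genes, with only 2 numbers, and the labels do not say that the number marks a shared pool. Leaving out a single array left 1 array for its day, so only counts over both days are given for these settings. Over both days the count was 5 or 3 when replicate 1 or replicate 2 of day 5 was left out, and 8 or 2 for those of day 8. As shares these were 13.9%, 8.33%, 22.2% and 5.56% of members, against 18.9%, 15.6%, 21.8% and 17.1% of all genes. Iars and Kars, 2 of the 17 genes, kept their call in every setting but median centring, and 9 lost it whichever array was left out.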
